A study of Homo sapiens with 8 samples.

Results

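The sites described here are the dispersed peaks called for p53 in untreated U2OS cells. They are the peaks of the untreated list that lay outside chromosomes M and Y and outside dense runs, where a dense run is 5 or more successive untreated peaks with gaps of at most 20 kb. The rule kept 347 of the 496 untreated peaks (70.0%) and left out 149. The 4 lists of the series held 24535 peaks in all.

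U2OS is an established line from a human osteosarcoma, a bone tumour, and by its labels it expresses its own wild-type p53. DNA bound by p53 was pulled down with antibody DO-1 and sequenced (ChIP-seq) in cells that had no treatment, 0.1% DMSO (the solvent and control of Nutlin-3), 0.6 µg/ml doxorubicin or 10 µM Nutlin-3, all labelled 24 h. The untreated cells are labelled as the control of doxorubicin. Each condition had 1 ChIP library, so no difference between conditions was tested and no p-value is given. The lists held 496 untreated, 2793 DMSO, 3087 doxorubicin and 18159 Nutlin-3 peaks, each as a chromosome, a start and an end in build hg18, with no height or read count. Depth is unknown, and list length can follow depth, peak calling or binding. Intervals beside shares are exact 95% binomial intervals (Clopper-Pearson), and those beside median gaps are 95% intervals from order statistics. Both cover counting error only and treat peaks as independent.

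The transcription factor p53 binds DNA as a tetramer at paired copies of a short motif. In unstressed cells the ubiquitin ligase MDM2 binds p53 and sends it to degradation, so that its level stays low. Doxorubicin, a topoisomerase II poison, breaks DNA and activates p53 through damage signalling. Nutlin-3 occupies the p53 pocket of MDM2 and lets p53 build up with no DNA breaks of its own. The untreated list was thus taken without a p53 activator. Whether p53 occupied its peaks was not tested, because the list came from 1 library without scores and no motif was searched. Sites are named by their hg18 positions, and neither genes nor sequences are given because an hg18 genome and gene models were not used here.

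Most dispersed untreated sites were in no other list. By an overlap of at least 1 bp, 265 of the 347 (76.4%, 71.5 to 80.7) met no DMSO, doxorubicin or Nutlin-3 peak, beside 62.1% of the whole untreated list. Doxorubicin overlapped 60 members (17.3%, 13.5 to 21.7), beside 33.5% of the whole list. Nutlin-3 overlapped 28 (8.07%, 5.43 to 11.5), beside 6.45%, and its list was the longest. DMSO overlapped 5 (1.44%, 0.469 to 3.33), beside 1.21%. The share found with doxorubicin was thus below that of the whole list, whose remaining 149 peaks had a doxorubicin share of 71.1% (63.2 to 78.3). When an overlap had to cover at least 50% of both peaks, the members' shares were 10.95% for doxorubicin and 2.59% for Nutlin-3. Counting midpoints within 200 bp, the Nutlin-3 share was 13.5%. Doxorubicin overlapped 10.4% once members beside the longest peak-free intervals were left out. The Nutlin-3 and DMSO shares of the whole list lay inside the members' intervals.

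Members were sorted by which lists they met. Doxorubicin alone overlapped 53 members and Nutlin-3 alone overlapped 21. Both treatments without DMSO overlapped 3 members, all of the other lists overlapped 4, and DMSO alone overlapped 1. Doxorubicin thus met 7 of the 28 members found with Nutlin-3, and 60 of all 347. From the other side, 64 of 3087 doxorubicin peaks (2.07%, 1.60 to 2.64) overlapped a member, against 29 of 18159 Nutlin-3 peaks (0.160%, 0.107 to 0.229) and 5 of 2793 DMSO peaks (0.179%, 0.0582 to 0.417). For any untreated peak these shares were 5.54%, 0.187% and 0.215%.

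The same rule applied to each list left 2645 doxorubicin, 2765 DMSO and 16252 Nutlin-3 peaks. Among these, Nutlin-3 overlapped 72.9% (71.2 to 74.6) of dispersed doxorubicin peaks and 70.5% (68.7 to 72.2) of dispersed DMSO peaks. The corresponding share of dispersed untreated peaks, 8.07%, lay far below both intervals. Doxorubicin overlapped 45.1% (43.2 to 46.9) of dispersed DMSO peaks, against 17.3% of dispersed untreated peaks. DMSO overlapped 47.0% (45.1 to 48.9) of dispersed doxorubicin peaks, against 1.44% of dispersed untreated peaks. Dispersed Nutlin-3 peaks met doxorubicin in 10.6% and DMSO in 10.4% of cases. The median width was 60 bp in all 4 dispersed sets.

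Dispersed untreated peaks were narrow. Widths ran from 40 to 2000 bp with quartiles of 40, 60 and 90 bp, and the members covered 36.0 kb in all. The smallest width in the lists, 40 bp, was held by 147 members (42.4%), and 94 more (27.1%) were 60 bp wide. A further 29 were 80 to 100 bp, 56 were 120 to 280 bp and 21 (6.05%) were 300 bp or more. The 149 peaks that the rule left out had a median of 260 bp, and 45.6% of them were 300 bp or more. Against the other lists outside the same places, the members' share of 40 bp peaks was between those of Nutlin-3 (34.6%) and doxorubicin (44.6%), and DMSO had 47.6%. Their share of peaks of 300 bp or more was above the 2.36% of DMSO, 2.59% of Nutlin-3 and 3.46% of doxorubicin.

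Sharing with doxorubicin was lowest among members of 60 to 100 bp. Doxorubicin overlapped 30 of the 147 members of 40 bp (20.4%, 14.2 to 27.8), 3 of the 94 of 60 bp (3.19%, 0.663 to 9.04), 2 of 29 at 80 to 100 bp, 14 of 56 at 120 to 280 bp (interval 14.4% to 38.4%) and 11 of 21 at 300 bp or more (52.4%, 29.8 to 74.3). The narrowest class was therefore shared with doxorubicin more often than the class one step of the 20 bp grid wider, and the intervals of these classes did not overlap. Nutlin-3 overlapped 8 members of 40 bp (5.44%, 2.38 to 10.4), 11 of 60 bp (11.7%, 5.99 to 19.97), 0 at 80 to 100 bp, 4 at 120 to 280 bp and 5 of the widest class (23.8%, 8.22 to 47.2). Wider peaks have more room to overlap. The members of 40 bp found with doxorubicin lay in some places and not in others, described below: doxorubicin overlapped 15 of 29 beside the longest peak-free intervals, 0 of 28 in megabase stretches and 15 of 90 elsewhere. The 94 members of 60 bp were spread otherwise, with 3, 34 and 57 in these places. Width was thus mixed with place, and the part of each in the contrast between classes was not tested.

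**Figure D1:**
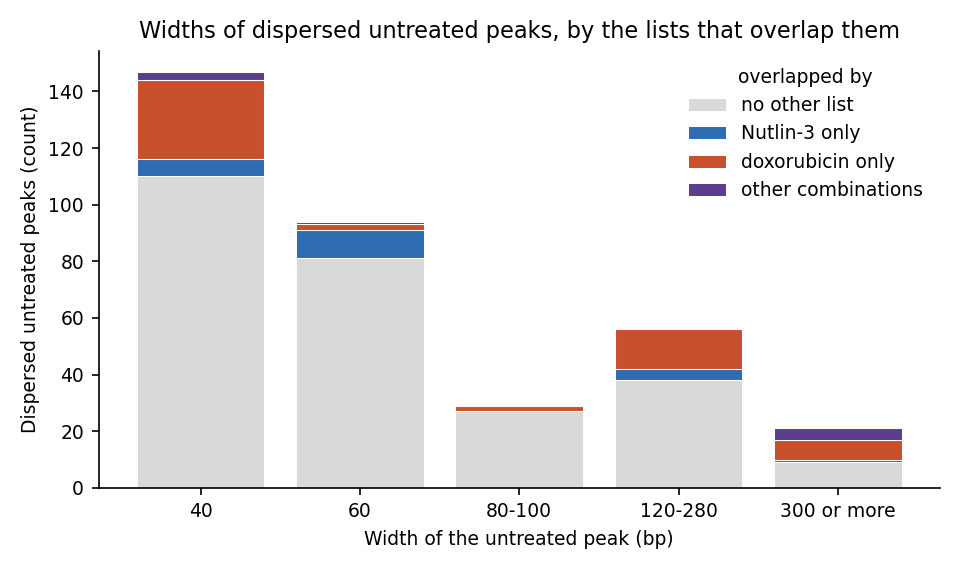
Number of dispersed untreated peaks (vertical axis) in 5 width classes in bp (horizontal axis), with each bar split by the lists that overlap the peaks by at least 1 bp. Peaks in no other list make up most of every class except that of 300 bp or more, where they are 9 of 21.

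Many doxorubicin matches had exactly the same bounds. Of the 64 overlapping pairs of a member and a doxorubicin peak, 27 (42.2%, 29.9 to 55.2) shared both start and end. Of these 27, 21 were 40 bp wide. The longer ones included 28173551 to 28173991 on chromosome 17 (440 bp), 121058291 to 121058511 on chromosome 1 (220 bp), 121059531 to 121059731 on chromosome 1 (200 bp) and 36315251 to 36315411 on chromosome 12 (160 bp). Nutlin-3 had the same bounds in 2 of 29 pairs (6.90%, 0.846 to 22.8), and DMSO in 2 of 5. Among pairs of the other lists outside the same places, the share with the same bounds was 13.2% (11.4 to 15.2) for DMSO and doxorubicin, 17.3% (15.6 to 18.99) for DMSO and Nutlin-3 and 11.8% (10.4 to 13.3) for doxorubicin and Nutlin-3. The interval of the members' pairs with doxorubicin lay above these. It overlapped that of the untreated peaks left out by the rule, which had the same bounds as doxorubicin in 25 of 111 pairs (22.5%, 15.1 to 31.4). In pairs that did not have equal widths, the doxorubicin peak was the wider in 17 and the narrower in 17. Midpoints differed by a median of 20 bp for doxorubicin and 50 bp for Nutlin-3.

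By distance, Nutlin-3 was the nearest list, although doxorubicin overlapped more members. The nearest Nutlin-3 peak lay at a median gap of 12.9 kb (95% interval of the median 8.16 to 17.7), the nearest doxorubicin peak at 110 kb (78.6 to 142) and the nearest DMSO peak at 251 kb (179 to 305). The longer a list, the shorter was its gap, and the part of list length in these gaps was not tested. Within 1000 bp, 103 members (29.7%, 24.9 to 34.8) had a Nutlin-3 peak, 71 (20.5%, 16.3 to 25.1) a doxorubicin peak and 18 (5.19%, 3.10 to 8.07) a DMSO peak, beside 23.0%, 39.1% and 4.44% of the whole untreated list. Within 10 kb the counts were 162 (46.7%), 89 (25.6%) and 33 (9.51%), and within 100 kb they were 272 (78.4%), 166 (47.8%) and 110 (31.7%). Among the 149 untreated peaks left out by the rule, the shares were 26.2%, 98.0% and 7.38% within 10 kb. Within 100 kb they were 46.3%, 100% and 9.40%. Of these 149, only 137 had a Nutlin-3 peak and 112 a DMSO peak on their chromosome. The others stayed in the denominator, which lowers those shares. At 1000 bp, 188 members (54.2%, 48.8 to 59.5) still had no peak of another list, against 25 of the 149 peaks left out (16.8%, 11.2 to 23.8).

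More dispersed untreated peaks thus had a Nutlin-3 peak only beside them than had one that overlapped. There were 75 members (21.6%) with a Nutlin-3 peak within 1000 bp that did not overlap, against 11 for doxorubicin and 13 for DMSO. In the whole untreated list, 114 of 496 peaks (23.0%) had a Nutlin-3 peak within 1000 bp and 32 (6.45%) overlapped one. These counts were 194 (39.1%) and 166 (33.5%) for doxorubicin, and 22 (4.44%) and 6 (1.21%) for DMSO. Of the 75 gaps, 32 were up to 200 bp, including 3 with adjoining bounds, 23 were 201 to 500 bp and 20 were longer, with a median of 280 bp. The Nutlin-3 neighbour lay at higher coordinates in 38 cases and at lower ones in 37, and its median width was 60 bp. Of these neighbours, 4 were overlapped by a DMSO peak and 6 by a doxorubicin peak. Doxorubicin showed the reverse, with 60 overlaps and 11 such neighbours. The part of list length in these counts was not tested.

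**Figure D2:**
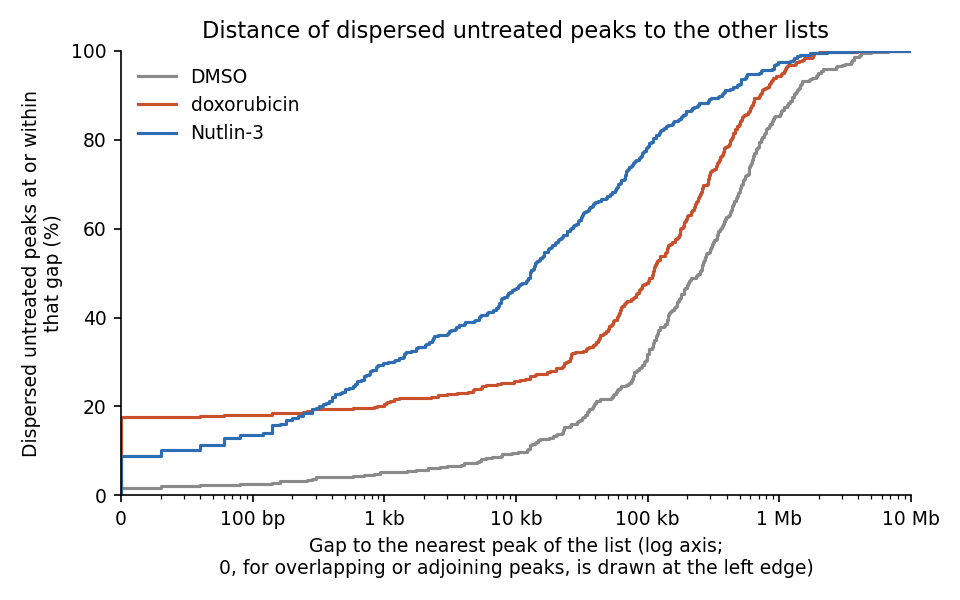
Share of the 347 dispersed untreated peaks (vertical axis, %) that have a peak of each other list at or within a given gap (horizontal axis, log scale). The left edge holds both overlapping and adjoining peaks. The doxorubicin line starts highest there and stays nearly flat to 1 kb. The Nutlin-3 line climbs from 28 overlaps and 3 adjoining peaks to 103 members at 1 kb and 162 at 10 kb.

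The 60 members found with doxorubicin had a median gap of 117 kb (24.6 to 219) to Nutlin-3 and 614 kb (391 to 798) to DMSO. For the 265 members in no other list the gaps were 12.7 kb (7.70 to 17.5) to Nutlin-3, 189 kb (144 to 260) to DMSO and 172 kb (124 to 213) to doxorubicin. The 28 members found with Nutlin-3 lay a median of 112 kb (14.0 to 334) from doxorubicin and 139 kb (22.4 to 425) from DMSO. The members in no other list have no overlap by construction, so their gaps are not compared with the other groups.

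Dispersed untreated peaks were unevenly spread over chromosomes. Chromosome 8 held 65 (18.7%, 14.8 to 23.2), against 5.41% of DMSO, 4.58% of doxorubicin and 6.10% of Nutlin-3 peaks outside the same places. Chromosome 7 held 36 (10.4%, 7.37 to 14.1), against 6.13%, 6.16% and 6.19%. Chromosome 18 held 30 (8.65%, 5.91 to 12.1), against 2.15%, 1.89% and 2.36%, and chromosome 20 held 22 (6.34%, 4.02 to 9.44), against 2.83%, 3.22% and 3.49%. On each of these 4 chromosomes the members' share was above those of the other 3 lists, and the interval excluded them. Together they held 153 members (44.1%), with 16.5% of DMSO, 15.9% of doxorubicin and 18.1% of Nutlin-3 peaks.

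On chromosomes 1, 2, 6, 11 and 13 the members' interval lay below the shares of all other lists. Chromosome 1 had 19 (5.48%, 3.33 to 8.42), against 9.28% of DMSO, 9.52% of doxorubicin and 9.23% of Nutlin-3 peaks. Chromosome 13 had 0 members (upper bound 1.06%), against 54 DMSO, 56 doxorubicin and 346 Nutlin-3 peaks. Chromosome 6 had 3 (0.865%, 0.179 to 2.51), against 6.13% of DMSO, 4.62% of doxorubicin and 5.24% of Nutlin-3 peaks. Chromosome 2 had 15 (4.32%, 2.44 to 7.03), against 8.53%, 7.87% and 9.40%. Chromosome 11 had 7 (2.02%, 0.815 to 4.11), against 4.69%, 4.93% and 4.77%.

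Sharing differed between the fullest chromosomes and the rest. On chromosomes 7, 8, 18 and 20, 135 of 153 members (88.2%, 82.0 to 92.9) were in no other list, against 130 of 194 (67.0%, 59.9 to 73.6) elsewhere. Doxorubicin overlapped 10 of the 153 (6.54%) and 50 of the 194 (25.8%). These chromosomes were picked by their counts of members, and the shares were not used for that. Chromosomes 8, 18 and 20 also hold megabase stretches, described below, so this contrast and that of the stretches share members and are not independent.

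**Figure D3:**
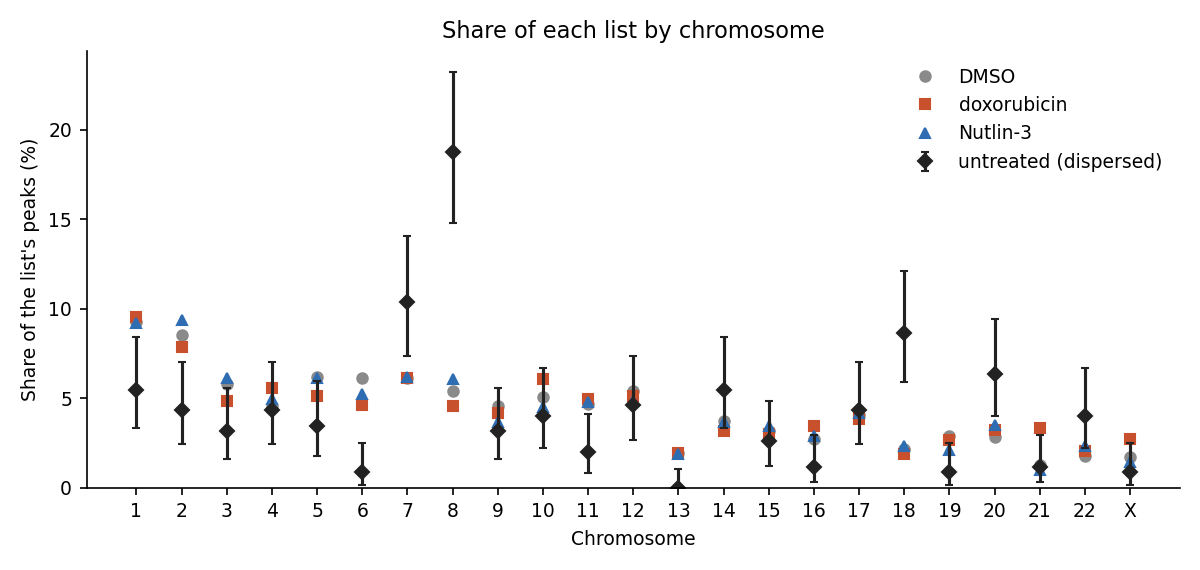
Share of each list's peaks (vertical axis, %) on chromosomes 1 to 22 and X (horizontal axis), outside the untreated dense runs. Diamonds are the dispersed untreated peaks with exact 95% binomial intervals. These intervals lie above the other lists on chromosomes 7, 8, 18 and 20 and below them on chromosomes 1, 2, 6, 11 and 13.

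At the scale of megabases the members were partly clustered. They occupied 226 bins of 1 Mb, which is 8.41% of the 2686 bins that held a peak of any list. Of these bins, 169 held 1 member, 25 held 2 and 32 held 3 or more, and the last group contained 128 members (36.9%). The gap to the next untreated peak had a median of 389 kb (217 to 502) and ranged from 48.4 kb at the first quartile to 2.24 Mb at the third. Of the bins with a member, 80.5% also held a doxorubicin peak and 68.1% a DMSO peak, beside 57.3% and 55.7% of all bins with any peak. The doxorubicin share includes bins whose members were themselves overlapped by doxorubicin. For Nutlin-3 the shares were 92.0% and 98.8%. A bin could enter the set of 2686 through any list, and 2654 of them held a Nutlin-3 peak. The 98.8% thus follows largely from how the set was formed, and no difference is read from these 2 shares.

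The fullest bin lay on chromosome 8 from 29 to 30 Mb. It held 17 members of 40 to 380 bp, with 5 DMSO, 3 doxorubicin and 32 Nutlin-3 peaks. Of the 17, Nutlin-3 overlapped 1, and 0 were overlapped by doxorubicin or DMSO. The adjacent bins, from 28 to 29 Mb and from 30 to 31 Mb, held 6 members each, of which Nutlin-3 overlapped 1 and 0. The next 2 bins were of another kind. On chromosome 1 from 121 to 122 Mb there were 5 members of 140 to 320 bp, all overlapped by doxorubicin, with 10 doxorubicin peaks and 0 from DMSO or Nutlin-3. On chromosome 10 from 41 to 42 Mb there were 5 members of 40 to 560 bp, 2 of them overlapped by doxorubicin, with 13 doxorubicin peaks and 0 from DMSO or Nutlin-3. The bin on chromosome 18 from 3 to 4 Mb also held 5 members, with 0 shared, and its 44 Nutlin-3 peaks were the highest count of that list in any bin.

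To describe the first kind, megabase stretches were defined, after the positions were seen, as 8 or more members with successive gaps of at most 2 Mb. There were 7 on 5 chromosomes, with 104 members (30.0%, 25.2 to 35.1) in 38.0 Mb. Input reads were not analysed here, so neither these counts nor those by chromosome are set against the amount of DNA that each region contributed. The densest ran on chromosome 8 from 27686011 to 30248951 and held 31 members in 2.56 Mb, or 8.93% of all members. The same interval held 6 DMSO, 5 doxorubicin and 59 Nutlin-3 peaks, which are 0.215%, 0.175% and 0.325% of their lists. A dense run of 6 untreated peaks, left out by the rule, lay inside it. Farther along chromosome 8, the interval from 128876811 to 131731051 held 10 members with 6 DMSO, 4 doxorubicin and 70 Nutlin-3 peaks.

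Chromosome 18 had stretches from 97331 to 5145831, with 13 members, and from 7291091 to 15397471, with 15. Chromosome 20 had 14 members from 43844251 to 52182971, chromosome 22 had 13 from 22703031 to 28070271 and chromosome 14 had 8 from 49537051 to 55236131. In each of the 7 stretches the share of members was above the share of every other list. That is set by the way the stretches were chosen and is given as a description. What the choice did not use is the density of the other lists. DMSO had 1.92 peaks per Mb inside the stretches and 0.939 outside, a ratio of 2.05. Doxorubicin had 1.92 and 0.962, a ratio of 1.997, and Nutlin-3 had 17.6 and 6.04, a ratio of 2.92. All 3 lists were thus denser there as well, though less so than the untreated list, at 2.74 against 0.0840.

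**Figure D4:**
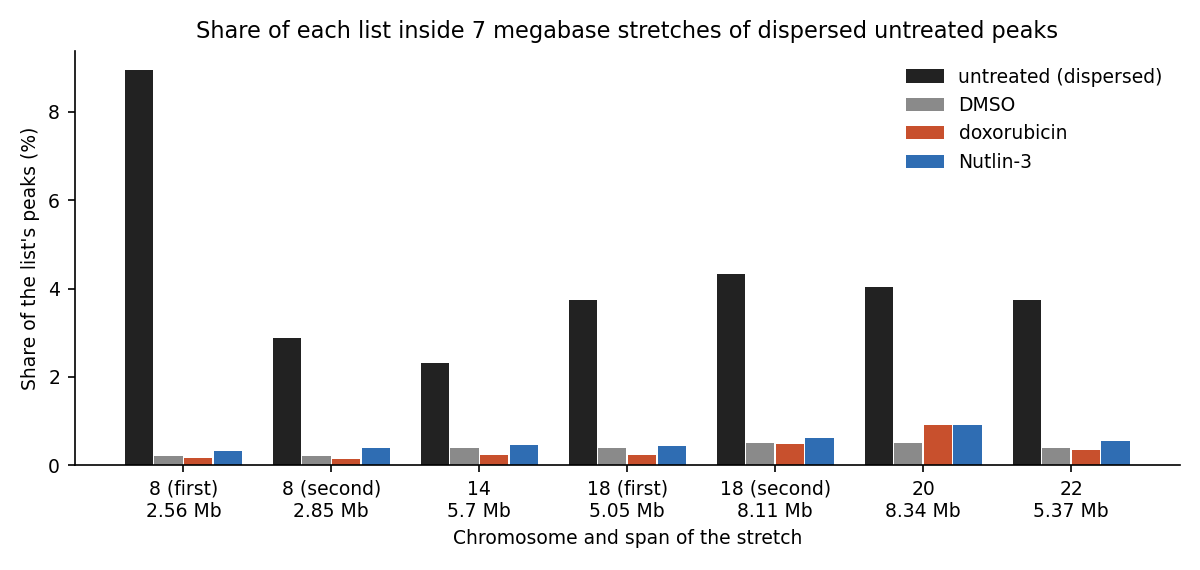
Share of each list's peaks (vertical axis, %) inside each of the 7 megabase stretches, labelled by chromosome and span (horizontal axis). The black bars, the dispersed untreated peaks, reach 8.93% in the first stretch of chromosome 8, where the other lists have between 0.175% and 0.325%.

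The members inside the stretches were seldom shared with doxorubicin. Doxorubicin overlapped 2 of 104 (1.92%, 0.234 to 6.77), Nutlin-3 overlapped 8 (7.69%, 3.38 to 14.6) and DMSO overlapped 0 (0 to 3.48). In no other list were 94 (90.4%, 83.0 to 95.3). Over all members the shares were 17.3% for doxorubicin, 8.07% for Nutlin-3 and 1.44% for DMSO. The first lay outside the interval of the stretches, and the shares of Nutlin-3 and DMSO lay inside theirs. Within 1000 bp, 35 of the 104 had a Nutlin-3 peak, 8 a doxorubicin peak and 2 a DMSO peak. Their median gap to Nutlin-3 was 6.05 kb (2.06 to 11.9) and to doxorubicin 147 kb (110 to 217). Peaks of 40 bp made up 26.9% of them, and 8 were 300 bp or more.

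The second kind of place lay at the edge of the longest peak-free interval of a chromosome, counted over all 4 lists from position 1. Within 2 Mb of these intervals there were 49 members, on 13 chromosomes. The longest intervals were on chromosome 9 from 38672951 to 66197931 (27.5 Mb, with 6 members beside it) and on chromosome 1 from 121185091 to 141476971 (20.3 Mb, with 8). Doxorubicin overlapped 29 of the 49 (59.2%, 44.2 to 73.0), Nutlin-3 overlapped 3 and DMSO overlapped 3 (6.12%, 1.28 to 16.9, in each case). The 29 make up 48.3% (35.2 to 61.6) of the 60 members found with doxorubicin, while 10.7% (2.27 to 28.2) of the 28 found with Nutlin-3 lay there. By width, doxorubicin overlapped 15 of 29 members of 40 bp, 7 of 10 of 60 to 280 bp and 7 of 10 of 300 bp or more.

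The 194 members elsewhere were in between for doxorubicin. Doxorubicin overlapped 29 (14.9%, 10.2 to 20.8), Nutlin-3 overlapped 17 (8.76%, 5.19 to 13.7) and DMSO overlapped 2, and 151 (77.8%, 71.3 to 83.5) were in no other list. Of these 194, 90 (46.4%) were 40 bp wide and 3 were 300 bp or more. The doxorubicin share had intervals that did not overlap between the 3 sorts of place. These intervals treat peaks as independent, although some members lay close together, such as the 5 in 1 bin of chromosome 1, and the difference was not tested. Elsewhere is a remainder, because the longest peak-free interval need not be the same kind of place on every chromosome. On chromosome X it ran from 23829231 to 29141671. Members there starting at 61602351 and 61634551, both overlapped by doxorubicin, counted as elsewhere. For Nutlin-3 the 3 shares lay within each other's intervals.

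**Figure D5:**
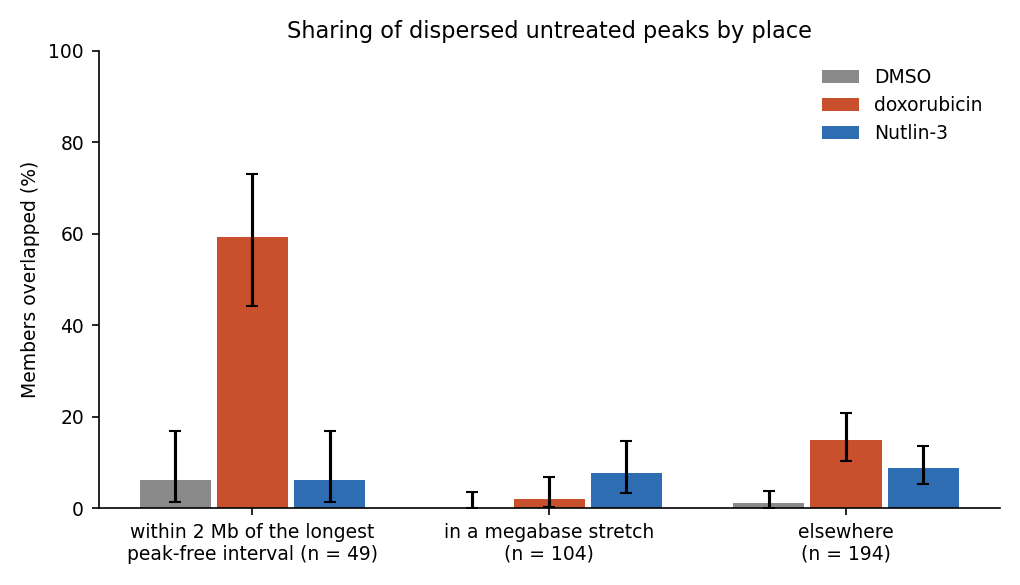
Share of dispersed untreated peaks overlapped by each other list (vertical axis, %) in 3 sorts of place (horizontal axis), with exact 95% binomial intervals as error bars. Doxorubicin stands at 59.2% beside the longest peak-free intervals, 1.92% in the megabase stretches and 14.9% elsewhere, and Nutlin-3 between 6.12% and 8.76%. Elsewhere holds all remaining members and need not be a single kind of place.

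The widest members came from both kinds of place. The first, on chromosome 9 from 67902311 to 67904311 (2000 bp), was overlapped by a DMSO peak of 280 bp and by 2 Nutlin-3 peaks, the first of 460 bp, as well as by doxorubicin. On chromosome 20 from 45956891 to 45957851 (960 bp), the second widest was in no other list, with a doxorubicin peak 140 bp away and the nearest Nutlin-3 peak at 31.8 kb. The next was on chromosome 9 from 67905611 to 67906411 (800 bp), again in no other list, with a doxorubicin peak 240 bp away. On chromosome 17 from 22290291 to 22291051 (760 bp), doxorubicin alone had a peak, of 300 bp. Of the 10 widest, 4 were overlapped by doxorubicin, 3 by Nutlin-3, 3 by DMSO and 6 by none, and 5 lay beside a longest peak-free interval and 4 in a megabase stretch.

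Among the widest members in no other list, several lay far from all of them. The peak on chromosome 20 from 46564931 to 46565571 (640 bp) had its nearest DMSO, doxorubicin and Nutlin-3 peaks at 52.4, 52.4 and 52.2 kb. The one on chromosome 8 from 28803231 to 28803751 (520 bp) had them at 35.3, 445 and 122 kb, and the one on chromosome 18 from 2561631 to 2562131 (500 bp) at 181, 501 and 42.2 kb. In contrast, the peak on chromosome 22 from 26182831 to 26183231 (400 bp) had a Nutlin-3 peak 60 bp away. On chromosome 10, a member of 560 bp starting at 41721731 and ending at 41722291 had a doxorubicin peak at 1.04 kb and a Nutlin-3 peak at 517 kb. Its neighbour of 360 bp, from 41726751 to 41727111, had them at 1.18 and 512 kb. The remaining ones were 340 bp wide on chromosome 18, from 101291 to 101631, and 260 bp wide on chromosome 7, from 5828951 to 5829211.

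The widest members found with doxorubicin often had a counterpart of another width. On chromosome 18 from 97331 to 97791 the member was 460 bp wide and the doxorubicin peak 2460 bp. On chromosome 11 from 51426251 to 51426711 it was 460 bp and the doxorubicin peak 160 bp. On chromosome 1 a member of 380 bp, from 141477871 to 141478251, had a doxorubicin peak of 680 bp. Across the longest peak-free interval of that chromosome, a member of 320 bp, from 121184771 to 121185091, had one of 300 bp. On chromosome 19 from 40758351 to 40758711 (360 bp), doxorubicin had a peak of 240 bp and Nutlin-3 one of 40 bp.

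Of the 5 members found with DMSO, 4 were in every list. One, on chromosome 3 from 199384691 to 199384731 (40 bp), had identical bounds in all 4 lists. Another, on chromosome 1 from 233199811 to 233199851 (40 bp), had identical bounds in DMSO and an adjoining Nutlin-3 peak, with doxorubicin 297 kb away. A pair lay on chromosome 20, the first of 500 bp from 26136871 to 26137371 and the second of 480 bp from 26137791 to 26138271. In the first of them, the DMSO and Nutlin-3 peaks had the same bounds, 26137031 to 26137091 (60 bp), and the doxorubicin peak was 420 bp wide. The second had a DMSO peak of 220 bp, a doxorubicin peak of 700 bp and a Nutlin-3 peak of 40 bp. The fifth was the widest member, on chromosome 9.

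The 28 members found with Nutlin-3 were spread over 15 chromosomes, with 4 on chromosome 8 and 3 each on chromosomes 2, 12, 14 and 20. Several were small peaks inside a much wider Nutlin-3 peak. The member on chromosome 17 from 54124831 to 54124871 (40 bp) lay in a Nutlin-3 peak of 780 bp, with doxorubicin and DMSO peaks at 880 and 920 bp. Members of 60 bp lay in Nutlin-3 peaks of 320 bp on chromosome 17 (52131891 to 52131951), chromosome 7 (100530231 to 100530291) and chromosome 20 (47395071 to 47395131), and of 300 bp on chromosome 2 (217904811 to 217904871). On chromosome 22 from 25949431 to 25949491 (60 bp) the Nutlin-3 peak was 380 bp wide and staggered, starting 20 bp after the member.

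Other members were wider than their Nutlin-3 counterpart. On chromosome 8 from 29836491 to 29836871 the member was 380 bp and the Nutlin-3 peak 40 bp. On chromosome 10 from 72094591 to 72094831 the widths were 240 and 60 bp, on chromosome 14 from 68222151 to 68222371 they were 220 and 60 bp, and on chromosome 8 from 27686011 to 27686211 they were 200 and 120 bp. Over all 29 pairs, the Nutlin-3 peak was the wider in 12, the narrower in 10 and of equal width in 7. On chromosome 2 from 40515711 to 40515751 (40 bp) the bounds were the same, and the nearest DMSO and doxorubicin peaks were 1288 and 1029.5 kb away. Both treatments and not DMSO were found on chromosome 12 from 20595651 to 20595711 and from 126216451 to 126216491, besides the chromosome 19 site above.

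The remaining members of this group were 40, 60 or 140 bp wide. On chromosome 2 (27796751 to 27796811) and chromosome 5 (124847891 to 124847951), members of 60 bp had Nutlin-3 peaks of 200 bp. On chromosome 14 from 51076231 to 51076371 both peaks were 140 bp wide. On chromosome 8, members of 60 bp from 28237771 to 28237831 and from 130617311 to 130617371 had Nutlin-3 peaks of 140 and 100 bp. The rest, on chromosome 7 (84169331 to 84169371), chromosome 12 (7904451 to 7904491), chromosome 14 (72594871 to 72594911), chromosome 15 (56526971 to 56527031) and chromosome 18 (10005531 to 10005571), were 40 or 60 bp wide with Nutlin-3 peaks of 40 or 60 bp.

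Groups on either side of the limit for dense runs are given for reference. Just inside it, 2 groups of 4 untreated peaks counted as dispersed. One spanned 20.2 kb on chromosome 8 from 29521891 to 29542131, with widths of 60 to 180 bp and 0 peaks overlapped by any list. The other spanned 14.5 kb on chromosome 9 from 67902311 to 67916771, with widths of 40 to 2000 bp, and doxorubicin overlapped 3 of its 4 peaks. Just outside, runs of 5 untreated peaks on chromosome 6 from 58881591 to 58887991 and on chromosome 19 from 32423631 to 32432471 had all 5 overlapped by doxorubicin and 0 by DMSO or Nutlin-3. Of the 347 members, 291 had no untreated peak within 20 kb, 36 were in pairs and 12 in groups of 3.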

How the data were processed

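Each of the 4 p53 ChIP libraries had 1 list of positions, which the authors deposited as 3 columns without a score, a count or a p-value. Per the submitters' processing notes, the build was hg18, and CASAVA and Bowtie 0.12.2 were used. What each did, and how peaks were called and filtered, is not stated in the labels. The series' design text says that inputs served as controls. All widths are multiples of 20 bp. Positions are printed as deposited. Ends were treated as exclusive, which leaves 1 bp open.

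Overlaps, gaps between edges, runs and 1 Mb bins (by midpoint) were computed in Python 3.11.15 with numpy 2.4.6 and scipy 1.17.1, with code tested on simulated data. A median's 95% interval came from order statistics. Chromosome and stretch shares of the other lists used peaks outside chromosomes M and Y and outside the untreated dense runs (2791 DMSO, 2858 doxorubicin and 18143 Nutlin-3 peaks).

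Sites named are the 10 widest members, those overlapped by DMSO or Nutlin-3, the 10 widest with doxorubicin and in no other list, the 5 fullest bins with one more that tied with them, and runs at the limit of 5 peaks. Other regions, with the same bounds or in stretches, were chosen after their values were seen. The members and the rules were chosen with earlier results of these data known. Gene and sequence steps that were planned could not be run without hg18.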

Additional observations from a re-analysis of the deposited data

How the results depend on the processing

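Of 104 alternatives for 11 results, 86 stayed within the interval of the reported value (or within 1.5 times, for counts) and 18 moved, of which 10 rose and 8 fell. Where the construction of an alternative does not show the cause, the cause was not tested. With a reciprocal overlap of at least 50%, doxorubicin overlapped 10.95%, Nutlin-3 2.59% and no other list 86.5% of members, a stricter rule by construction. Within 1000 bp, Nutlin-3 reached 29.7%, DMSO 5.19% and no other list 54.2%, and midpoints within 200 bp gave 13.5% for Nutlin-3. With dense runs of 10 or more peaks, doxorubicin overlapped 24.2%, 70.3% were in no other list and the median gap to doxorubicin was 65.9 kb. With members beside the longest peak-free intervals left out, these values were 10.4%, 82.2% and 147 kb. The longest peak-free interval need not be the same kind of place on every chromosome. Alternatives on megabase stretches and chromosome 8 were added after the data were seen. Outside the stretches, doxorubicin overlapped 23.9% and 70.4% were in no other list, and without chromosome 8 these and the Nutlin-3 share stayed within their intervals. The share of members in stretches was 14.7% with gaps of at most 1 Mb, 44.4% with 3 Mb and 46.7% with 5 or more members. Leaving out a replicate could not be run, with 1 library per condition. No paired analysis was possible because each condition had 1 library and the lists carry no test.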
